A study of Homo sapiens with 6 samples.

Results

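Oxidative phosphorylation genes were examined in 2 breast carcinoma cell lines labelled as ER+/PR+ invasive lobular. The set was defined by name: probe sets annotated to a single gene whose symbol starts with NDUF, UQCR, ATP5, COX4, COX5, COX6, COX7 or COX8, or is CYC1 or SDHA to SDHD, with 1 probe set per gene chosen by the highest mean over all arrays. The rule uses names and mean levels over all arrays. It found 107 probe sets of 74 genes, among 11963 genes tested. Of the 74, 66 encode subunits: 28 of complex I, 3 of complex II, 7 of complex III, 13 of complex IV and 15 of complex V. A further 5 encode complex I assembly factors and 1, ATP5IF1, encodes the inhibitor of complex V. The remaining 2 names caught by the rule are not protein genes: NDUFB2-AS1 is an antisense RNA and ATP5MC2P1 a pseudogene.

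The study compared SUM44 cells, labelled tamoxifen sensitive and given 500 nM 4-hydroxytamoxifen (4HT, the active form of the antioestrogen tamoxifen) for 24 h, with LCCTam cells, labelled resistant and kept 14 days without 4HT. Each group had 3 arrays labelled as biological replicates, and both lines were grown in SFIH medium on a Ham's F12 base. Cell line and drug exposure differ together in this design and cannot be told apart. RNA was hybridised as biotin-labelled target to Affymetrix arrays, and levels are log2 intensities summarised by robust multi-array averaging (RMA). In RNA from whole cultures, fewer cells of a kind and less RNA per cell cannot be told apart.

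Oxidative phosphorylation is carried out by 5 protein complexes of the mitochondrial inner membrane. Complexes I and II take electrons from NADH and succinate and pass them through coenzyme Q to complex III. Cytochrome c carries them on to complex IV, which reduces oxygen. The proton gradient built by complexes I, III and IV drives complex V, the ATP synthase. Most subunits are nuclear genes, and a small number of core subunits are encoded by mitochondrial DNA, which were not analysed here. In breast cells, oestrogen receptor signalling is known to act on nuclear genes of the respiratory chain.

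The arrays were first compared over all genes. Array medians lay between 6.70 and 6.77. Correlations between arrays were 0.994 to 0.995 within SUM44 and 0.958 to 0.987 within LCCTam. LCCTam replicate 1 was nearest to the SUM44 arrays (0.972 to 0.974) and LCCTam replicate 3 farthest (0.923 to 0.941). The mean level of 27 poly-A spike-in probe sets was 6.42 to 6.82 in SUM44. It was 6.80, 7.11 and 7.37 in LCCTam replicates 1, 2 and 3. Such probe sets are designed to report RNA added before labelling, and the values alone do not show whether any was added. The 3′ minus 5′ difference of ACTB, a measure of RNA integrity, was -0.11 to -0.05 in SUM44 and 0.08, -0.05 and 0.21 in LCCTam. The same difference of GAPDH was -0.06 to 0.20 in SUM44 and 0.00, 0.11 and 0.01 in LCCTam, within the SUM44 range. The part of these differences in the results was not tested. Luminal epithelial markers, all 8 of 8 measured, had a mean level of 11.57 to 11.72 in SUM44 and 11.32 to 11.41 in LCCTam. In LCCTam 2 were called higher and 4 lower, where 9.18% and 6.6% of all genes tested were. GATA3 and XBP1 were higher, by log2 differences of 1.11 and 0.47. ESR1, KRT8, KRT19 and KRT18 were lower, with differences of -1.40, -1.09, -0.69 and -0.42. The lists for basal, stromal and leukocyte cells had mean levels between 5.84 and 6.89 on every array, and limma called 0 of their measured genes, with 1 leukocyte gene at an unadjusted p under 0.05. The values come with no detection calls, so a low level cannot be separated from background.

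Across the 74 genes the lines differed in both directions. A gene was called when its Benjamini-Hochberg adjusted p in the limma fit over all genes was under 0.05, and differences are LCCTam minus SUM44 on the log2 scale. In LCCTam, 14 genes were higher (18.9%, where 9.18% of all genes tested were called higher) and 16 were lower (21.6%, against 6.6% of all genes), so 30 were called in all, 40.5% against 15.8%. Most of these genes are bright: 68 of 74 had a mean above the median of all gene means, 7.11. The 5981 genes above that median were also fitted and adjusted on their own. In that fit 17.6% were called higher and 11.6% lower, 29.2% in either direction. Of the set's 68 genes in it, 13 were higher and 17 lower. The set's share of higher calls is thus near that of bright genes in general, and its share of lower calls is larger than theirs. That excess of lower calls was not tested. Shares of calls among genes above the median level given below come from that separate fit. At an adjusted p under 0.01, 3 genes of the set were higher (3.54% of all genes) and 6 lower (2.51% of all genes). The median difference of the set was -0.07, beside 0.08 for all genes tested, and the median size of a difference was 0.33, beside 0.31 for the genes above the median level. Fold changes of called genes ran from 1.27 to 2.94, and 3 of them, NDUFS1, COX6C and ATP5F1D, reached 2-fold. For 18 genes every LCCTam array was above every SUM44 array, for 25 every one was below, and for 31 the groups overlapped. Groups that do not overlap made up 58.1% of the set, beside 35.4% of all genes (21.8% higher and 13.5% lower). All 30 called genes were among them.

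**Figure D1:**
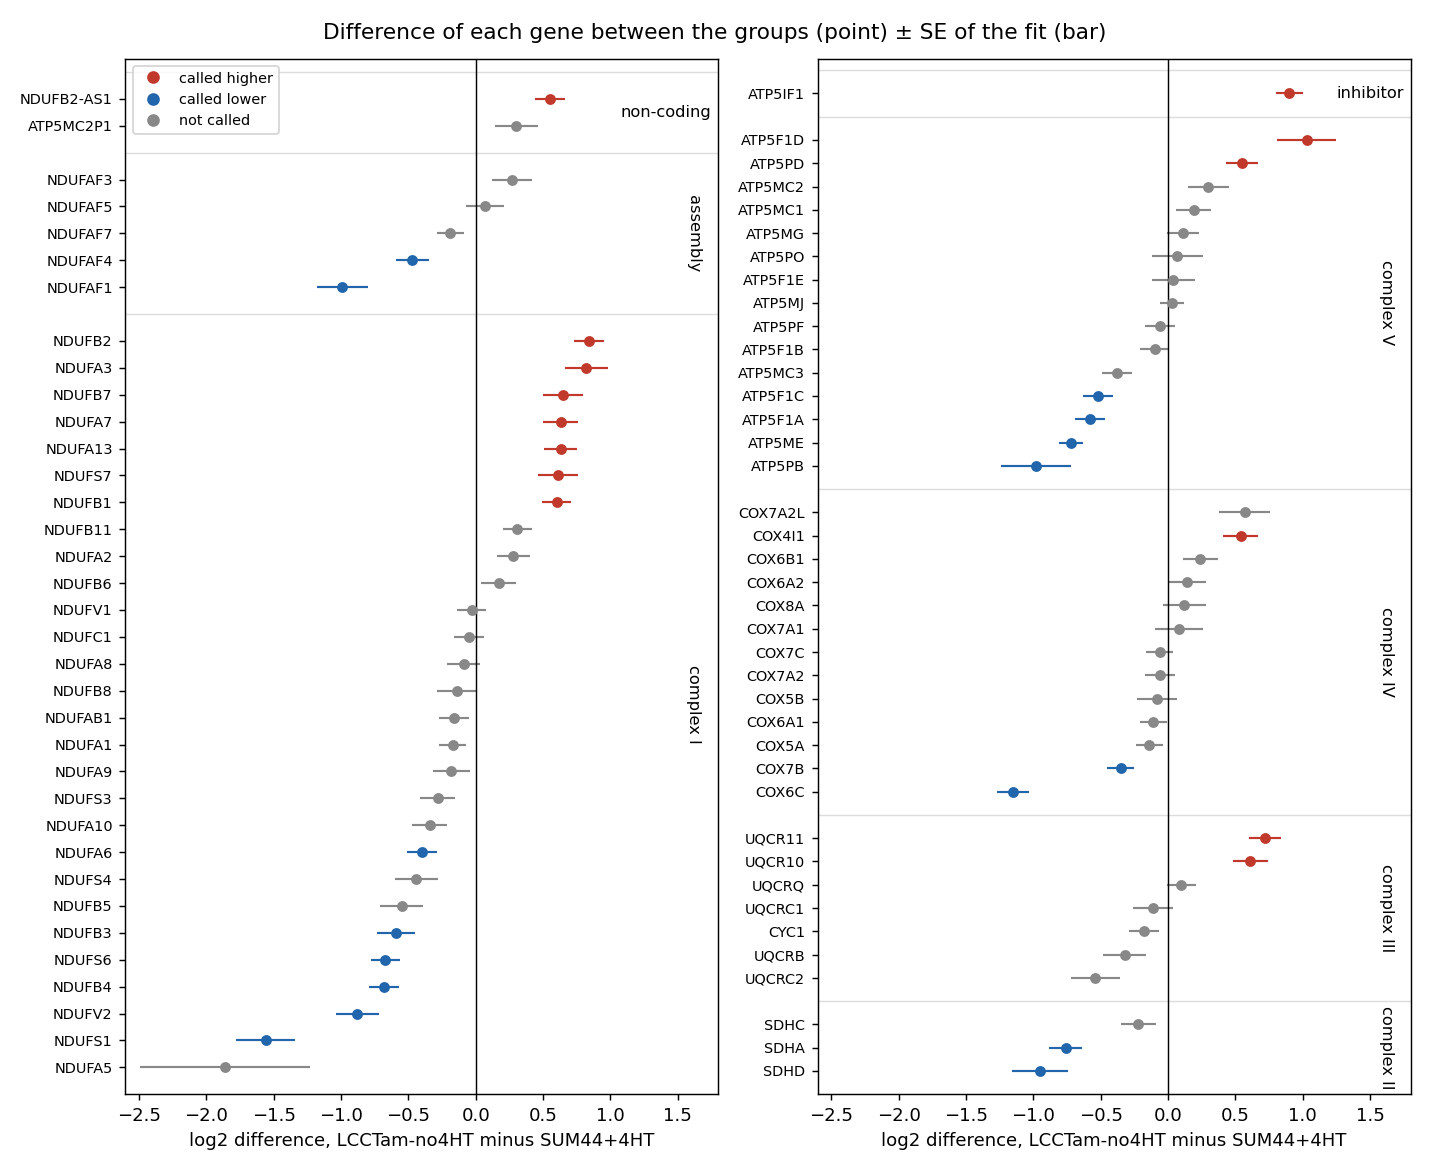
Log2 difference (LCCTam-no4HT minus SUM44+4HT, x axis) of each of the 74 genes, grouped by complex on the y axis; points are the limma estimates and bars their standard errors, in red where called higher, blue where called lower and grey where not called. Complexes I, IV and V hold called genes on both sides of 0, complex II only on the left and complex III only on the right.

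The spread was unequal between the groups. The SD over replicates was larger in LCCTam for 63 of 74 genes, and for 75.4% of all genes tested, with a median of 0.18 in LCCTam and 0.08 in SUM44 for the set. Among the 30 called genes, LCCTam replicate 3 was farthest from the SUM44 mean in 20 and LCCTam replicate 1 nearest in 20. The counts moved with single arrays. Leaving out LCCTam replicate 1 kept all 30 calls and gave 39 in total, while 35.5% of all genes were then called. Leaving out LCCTam replicate 3 kept 27 of the 30 (14.8% of all genes called). Only 11 remained with LCCTam replicate 2 left out (6.33% of all genes), and 10, 16 and 10 with SUM44 replicate 1, 2 or 3 left out (6.73%, 7.22% and 6.28% of all genes). The 9 genes called in each of these 6 fits were NDUFS1, NDUFS6, NDUFB4, NDUFB2, SDHA, UQCR11, COX6C, ATP5ME and ATP5IF1. Of the 44 genes not called, 32 had a 95% interval within a 1.5-fold difference and 42 within 2-fold.

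**Figure D2:**
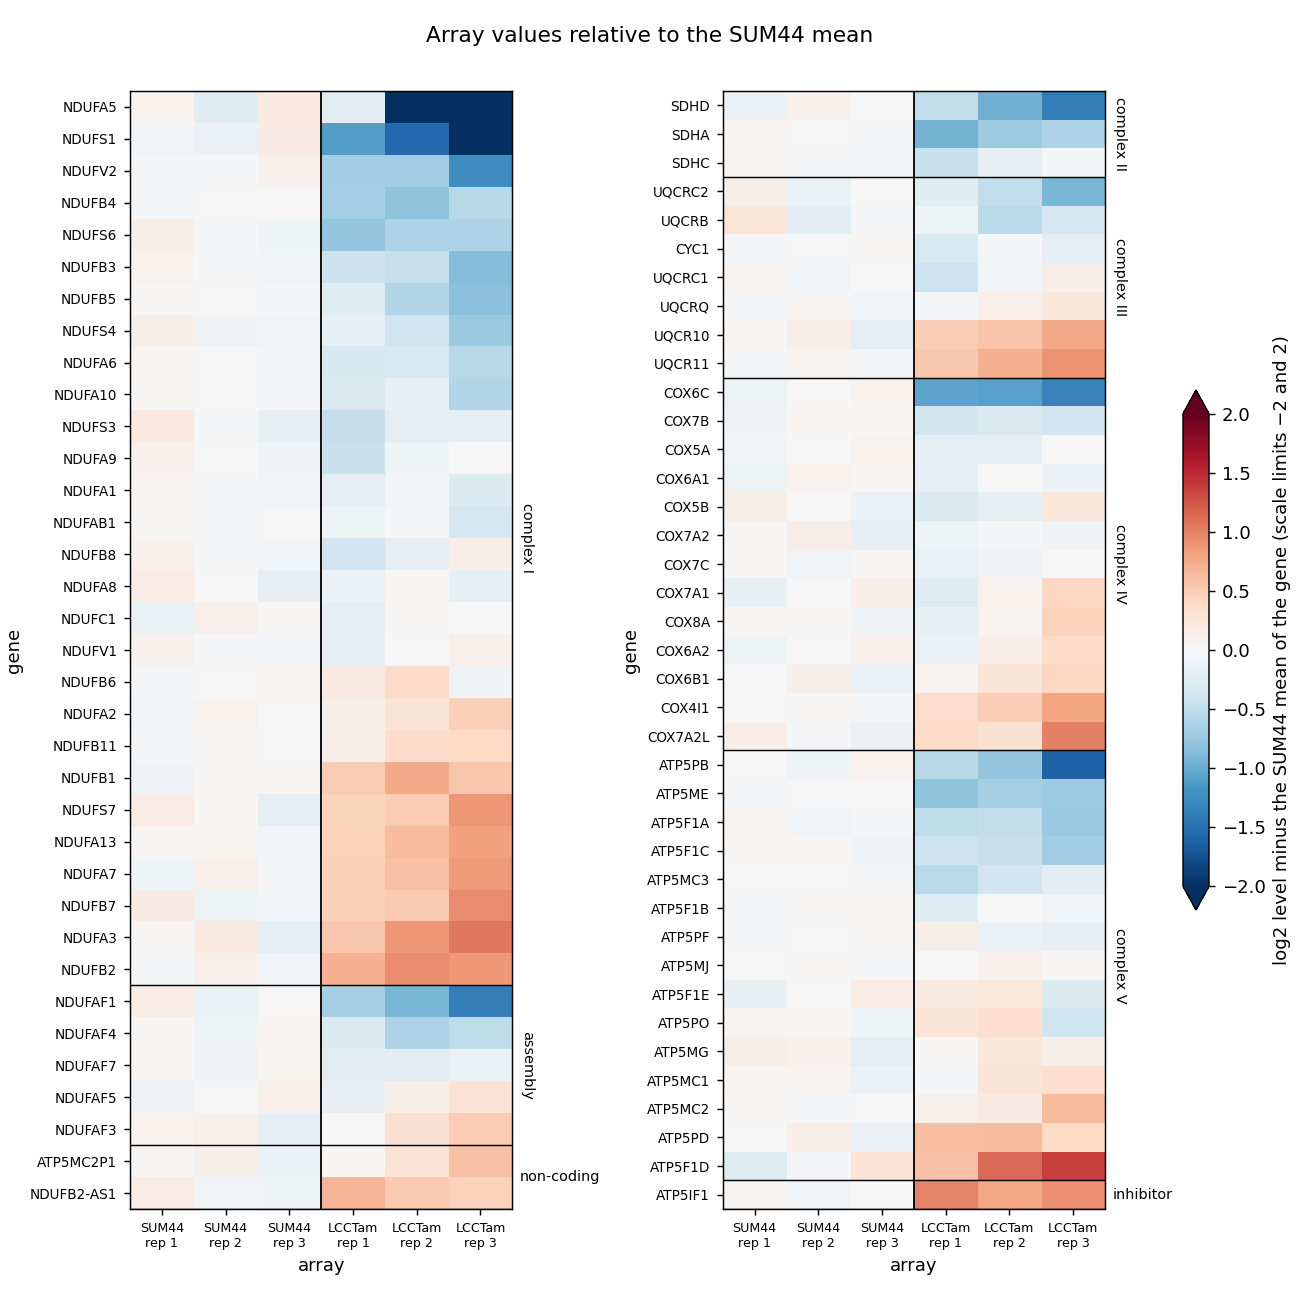
Level of each gene on each array minus its SUM44 mean (log2, colour scale from blue, -2, to red, 2; values beyond the limits take the end colour), genes in rows by complex and the 6 arrays in columns. LCCTam replicate 3 has the strongest colour in most called genes, and LCCTam replicate 1 the palest.

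What the promoters of these genes hold was read from RefSeq sequences (GRCh38.p14, the 250 bases before and 50 after the annotated start), which matched 64 of the 74 genes. Both strands were searched for letters recognised by regulators of respiratory genes. The motif of nuclear respiratory factor 1 (NRF1), 10 bases with any base at its sixth and shown in capitals below, was present in 14 of the 64 (21.9%), and in 9.47% of the 9563 promoters of genes tested and 6.28% of the 27305 promoters of the table. The motif CCGGAAG of GABPA, also known as nuclear respiratory factor 2, was present in 18 (28.1%, beside 15.2% of genes tested and 10.7% of the table). The 10-base motif of YY1 was present in 6 (9.38%, beside 2.47% and 1.28%). The oestrogen-related receptor motif TCAAGGTCA was present in 1, SDHD (1.56%, beside 0.199% and 0.359%), where it lies after the start. The SP1 motif GGGGCGGGG was present in 9 (14.1%, beside 25.1% and 16.0%). No hits of different motifs overlapped. The NRF1 motif occurred in 3 of 13 promoters of genes called higher, 5 of 15 of genes called lower and 6 of 36 of genes not called, so it was present on both sides of the comparison. Median GC content was 65.0%, 63.7% and 57.5% in these 3 groups, and 64.0% in promoters of genes tested.

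Promoter stretches are shown for 2 called subunits of complex II, which were lower in LCCTam, and for 1 of complex III, which was higher, because all 3 carry the NRF1 motif. Capitals mark NRF1 and GABPA motifs on either strand. Each is the 250 bases before the start, read 5′ to 3′ on the gene's strand. The SDHA stretch (chr5:218070-218319, plus strand) holds the NRF1 motif at 4 places, whose first bases lie 166, 117, 68 and 19 bases before the start. The SDHD stretch (chr11:112086623-112086872, plus strand) holds NRF1 at 110 and GABPA at 77 bases before the start. The UQCR11 stretch (chr19:1605463-1605712, minus strand) holds GABPA at 117 and 97 and NRF1 at 29 and 10 bases before the start.
SDHA: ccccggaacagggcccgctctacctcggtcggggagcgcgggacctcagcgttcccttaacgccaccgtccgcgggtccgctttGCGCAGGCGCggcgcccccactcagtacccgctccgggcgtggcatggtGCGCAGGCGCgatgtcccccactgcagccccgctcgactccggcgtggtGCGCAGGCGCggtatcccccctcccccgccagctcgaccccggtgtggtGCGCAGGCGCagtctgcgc
SDHD: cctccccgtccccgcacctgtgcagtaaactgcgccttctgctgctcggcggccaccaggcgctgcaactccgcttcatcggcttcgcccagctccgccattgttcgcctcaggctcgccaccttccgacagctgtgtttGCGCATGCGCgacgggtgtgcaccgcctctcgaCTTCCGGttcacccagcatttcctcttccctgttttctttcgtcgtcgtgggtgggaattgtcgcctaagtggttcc
UQCR11: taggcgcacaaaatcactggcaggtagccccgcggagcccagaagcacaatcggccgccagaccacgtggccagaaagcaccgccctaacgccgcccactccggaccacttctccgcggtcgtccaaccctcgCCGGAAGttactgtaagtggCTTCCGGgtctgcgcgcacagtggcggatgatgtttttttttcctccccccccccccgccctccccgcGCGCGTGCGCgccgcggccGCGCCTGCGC

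The other 5 called genes with an NRF1 motif are shown as 30 bases around one motif, in capitals, to compare their letters. ATP5F1C (chr10:7788145-7788174, plus strand), ATP5ME (chr4:674476-674505, minus strand) and NDUFB4 (chr3:120596167-120596196, plus strand) were lower in LCCTam. NDUFA3 (chr19:54102675-54102704, plus strand) and UQCR10 (chr22:29767351-29767380, plus strand) were higher.
ATP5F1C: gggagcttcgGCGCATGCGCgctgaggcct
ATP5ME: cgcagcaactGCGCAGGCGCagccgatgat
NDUFB4: agagcacttcGCGCATGCGCatatcaccga
NDUFA3: ctgcgcgagtGCGCACGCGCaggctccgaa
UQCR10: gtcggccccaGCGCAGGCGCggtggcgcga
A match of letters describes the sequence and does not show that the factor binds there.

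Complex I was divided. Of its 28 subunits measured, 7 were called higher, 6 lower and 15 not called. The median difference was -0.15, and -0.06 without LCCTam replicate 1. Among genes above the median level, 17.6% were called higher and 11.6% lower, and among all genes 9.18% and 6.6%. Complex I oxidises NADH in a matrix arm that holds flavin and iron-sulphur clusters, and pumps protons in a membrane arm. Array values below are given in the order of replicates 1, 2 and 3.

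Among the 5 core subunits measured, 2 were lower and 1 higher. NDUFS1, the largest iron-sulphur subunit of the matrix arm, had levels of 9.82, 9.76 and 10.05 in SUM44 and 8.76, 8.32 and 7.88 in LCCTam. The groups did not overlap, and the difference of -1.56 ± 0.22 (SE; 2.94-fold, adjusted p = 0.0039) had the largest fold of the called genes. NDUFV2, an iron-sulphur subunit near the NADH site, had levels of 10.78, 10.78 and 10.91 in SUM44 and 10.13, 10.12 and 9.58 in LCCTam, a difference of -0.88 ± 0.16 (adjusted p = 0.0116). With SUM44 replicate 1 or 3 left out it was no longer called (adjusted p = 0.0508 and 0.062), in a range of 0.00187 to 0.062 over all alternatives. NDUFS7, which carries the last iron-sulphur cluster before coenzyme Q, went the other way, from 9.51 ± 0.17 to 10.12 ± 0.23 (SD, n = 3; adjusted p = 0.0341). NDUFV1, which binds NADH and the flavin, differed by -0.03 ± 0.11 and NDUFS3 by -0.28 ± 0.13, and neither was called.

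The 23 accessory subunits surround this core and stabilise it: 6 were higher, 4 lower and 13 not called. NDUFB2, of the membrane arm, had levels of 11.47, 11.60 and 11.44 in SUM44 and 12.21, 12.45 and 12.36 in LCCTam. Its difference of 0.84 ± 0.11 (adjusted p = 0.00293) was the highest of the complex, and it was called in every fit that left out 1 array. NDUFA3, a membrane arm subunit, had levels of 10.44, 10.59 and 10.21 in SUM44 and 10.95, 11.27 and 11.47 in LCCTam, a difference of 0.82 ± 0.16 (adjusted p = 0.0159). NDUFA13, also known as GRIM-19, had levels of 11.55, 11.58 and 11.47 in SUM44 and 11.99, 12.16 and 12.35 in LCCTam. Each of these 3 genes was above every SUM44 array on every LCCTam array, and NDUFA13 differed by 0.63 ± 0.12 (adjusted p = 0.0134). NDUFB7 had levels of 9.07, 8.80 and 8.84 in SUM44 and 9.37, 9.43 and 9.84 in LCCTam, and NDUFA7 had 9.25, 9.43 and 9.31 beside 9.81, 9.91 and 10.18. NDUFB1 had 11.53, 11.63 and 11.64 in SUM44 and 12.10, 12.35 and 12.16 in LCCTam. The differences of these last 3 genes were 0.65 ± 0.15, 0.63 ± 0.13 and 0.60 ± 0.11 (adjusted p = 0.0304, 0.0157 and 0.0107).

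Lower accessory subunits lay in both arms. NDUFB4, of the membrane arm, had levels of 12.59, 12.62 and 12.62 in SUM44 and 11.93, 11.80 and 12.06 in LCCTam, a difference of -0.68 ± 0.11 (adjusted p = 0.00605). NDUFS6, a zinc-binding subunit of the matrix arm, had levels of 11.36, 11.21 and 11.16 in SUM44 and 10.47, 10.63 and 10.62 in LCCTam, a difference of -0.67 ± 0.11 (adjusted p = 0.00692). Neither gene stood farthest in LCCTam replicate 3, and both were called in every fit that left out 1 array. NDUFB3 had levels of 10.37, 10.28 and 10.25 in SUM44 and 9.87, 9.84 and 9.43 in LCCTam, a difference of -0.59 ± 0.14 (adjusted p = 0.0299). NDUFA6, a matrix arm subunit of the LYR family, went from 11.45 ± 0.05 to 11.05 ± 0.13 (SD, n = 3; adjusted p = 0.0453). With 1 array left out (SUM44 replicates 1 to 3, then LCCTam replicates 1 to 3), complex I genes called higher numbered 1, 4, 1, 9, 1 and 7. Those called lower numbered 3, 4, 3, 9, 4 and 5. In the same order, 4.1%, 3.92%, 3.74%, 18.7%, 3.59% and 8.63% of all genes were called higher. The shares of all genes called lower were 2.63%, 3.3%, 2.53%, 16.8%, 2.73% and 6.16%.

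The lowest difference of all 74 genes was not called. NDUFA5, a matrix arm subunit, had levels of 8.69, 8.37 and 8.81 in SUM44 and 8.40, 6.30 and 5.60 in LCCTam. LCCTam replicate 1 lay inside the SUM44 range and the other two far below it. The difference of -1.86 ± 0.63 had a 95% interval of -3.32 to -0.40 and an adjusted p of 0.0887. Without LCCTam replicate 1 the difference was -2.67 (adjusted p = 5.37e-05), and without each other array the adjusted p was 0.166 to 0.259. A second probe set of NDUFA5 had levels of 3.97 in SUM44 and 4.07 in LCCTam, which is dim on these arrays. NDUFB5 was below SUM44 on each LCCTam array, by -0.55 ± 0.16, and missed the threshold (adjusted p = 0.0512).

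Assembly factors of complex I build the enzyme without staying in it. Of the 5 in the set, 2 were lower and 3 not called, where 6.6% of all genes were called lower and 9.18% higher. NDUFAF1, which helps build the membrane arm, had levels of 9.28, 8.99 and 9.12 in SUM44 and 8.47, 8.22 and 7.74 in LCCTam, a difference of -0.99 ± 0.19 (adjusted p = 0.0139). NDUFAF4 went from 8.17 ± 0.07 to 7.70 ± 0.17 (SD, n = 3; adjusted p = 0.0384). The highest of the 5, NDUFAF3, differed by 0.27 ± 0.15 and was not called. Without SUM44 replicates 1 and 3 or LCCTam replicate 2, neither factor was called, and without LCCTam replicate 3 or SUM44 replicate 2, 1 was. NDUFAF5 and NDUFAF7 had mean levels below the lower quartile of all genes, 5.93.

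**Figure D3:**
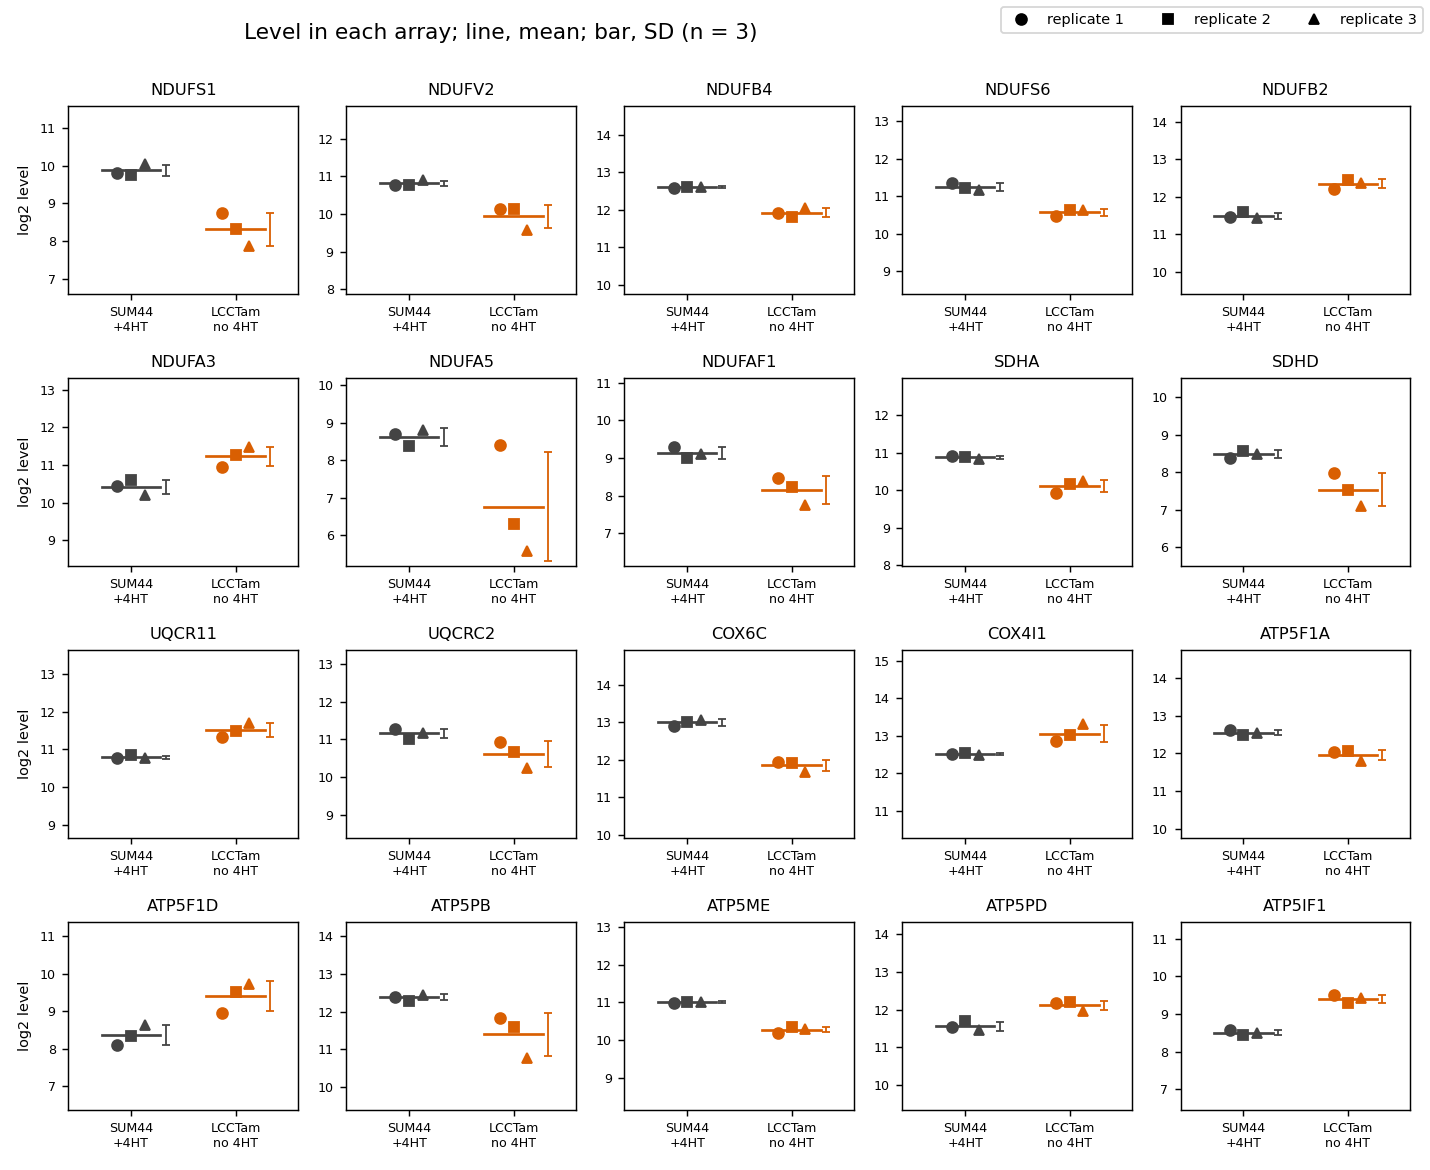
Log2 level (y axis, the same span in every panel) of 20 genes on each array, with SUM44+4HT in grey and LCCTam-no4HT in orange; symbols mark the replicates, lines the group mean and bars the SD (n = 3). NDUFS1, SDHA, COX6C and ATP5ME lie lower and NDUFB2, UQCR11 and ATP5IF1 higher on all 3 LCCTam arrays, while NDUFA5 has 1 LCCTam array at the SUM44 level.

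Complex II, succinate dehydrogenase, belongs to both the respiratory chain and the tricarboxylic acid cycle. Of its 3 subunits measured, 2 were lower, with a median difference of -0.76 over the complex, and -0.42 with the mean of each gene's probe sets. All genes tested had 9.18% called higher and 6.6% lower, and 3 genes are too few to set a share against that. SDHB was not analysed here. SDHA, the flavoprotein that binds succinate and whose promoter is shown above, had levels of 10.91, 10.88 and 10.83 in SUM44 and 9.92, 10.16 and 10.25 in LCCTam. All LCCTam arrays were lower, by -0.76 ± 0.12 (adjusted p = 0.00556), and here LCCTam replicate 1 was the farthest from SUM44. SDHD, a membrane anchor, had levels of 8.37, 8.58 and 8.50 in SUM44 and 7.99, 7.53 and 7.10 in LCCTam, a difference of -0.95 ± 0.21 (adjusted p = 0.0243). A second SDHD probe set, at 4.99 in SUM44 and 5.10 in LCCTam, differed by 0.11 and was dim. SDHC, the other anchor, had levels of 11.63, 11.53 and 11.54 in SUM44 and 11.12, 11.40 and 11.54 in LCCTam. Its groups overlapped, and the difference of -0.22 had a 95% interval of -0.52 to 0.09. SDHA was called in every fit that left out 1 array. SDHD was called only without LCCTam replicate 1 or 3 among those fits, and had an adjusted p of 0.0761, 0.0921 or 0.0953 with a SUM44 array left out and 0.0948 with LCCTam replicate 2 left out.

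Complex III passes electrons from coenzyme Q to cytochrome c. Of its 7 genes measured, 2 small accessory subunits were higher and none was lower by limma (3 of the 7 had an unadjusted p under 0.05). The median difference was -0.11. Without LCCTam replicate 1 the median was 0.04 and 1 gene was called lower, where 16.8% of all genes then were. With all arrays, 9.18% of all genes tested were called higher and 6.6% lower (17.6% and 11.6% above the median level). UQCR11 had levels of 10.76, 10.84 and 10.77 in SUM44 and 11.33, 11.50 and 11.69 in LCCTam, a difference of 0.72 ± 0.12 (adjusted p = 0.00744). UQCR10 had levels of 11.87, 11.96 and 11.65 in SUM44 and 12.32, 12.40 and 12.59 in LCCTam, a difference of 0.61 ± 0.13 (adjusted p = 0.0186). Both stood above every SUM44 array, and UQCR10 lost its call without SUM44 replicate 1 (adjusted p = 0.0704), SUM44 replicate 3 (0.083) or LCCTam replicate 2 (0.0737), within a range of 0.0051 to 0.083. The lowest, UQCRC2, a core protein on the matrix side, had levels of 11.28, 11.02 and 11.17 in SUM44 and 10.92, 10.67 and 10.25 in LCCTam. Its groups did not overlap, and its difference of -0.54 (95% interval -0.95 to -0.13) missed the threshold at an adjusted p of 0.0814. Its partner UQCRC1 differed by -0.11 ± 0.15. CYC1, the cytochrome c1 that hands electrons to cytochrome c, differed by -0.18 ± 0.11 (adjusted p = 0.307). The Rieske iron-sulphur protein UQCRFS1 was not analysed here.

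Complex IV, cytochrome c oxidase, had 1 gene higher, 2 lower and 10 not called, with a median of -0.06. Among all genes 9.18% were called higher and 6.6% lower, and among genes above the median level 17.6% and 11.6%. COX6C had levels of 12.90, 13.01 and 13.07 in SUM44 and 11.95, 11.92 and 11.67 in LCCTam. Its difference of -1.15 ± 0.12 (2.22-fold, adjusted p = 0.00105) had the smallest adjusted p of the 74 genes. COX7B fell from 12.20 ± 0.06 to 11.85 ± 0.05 (SD, n = 3; adjusted p = 0.0468). COX4I1, the ubiquitous form of the subunit through which ATP regulates the enzyme, had levels of 12.53, 12.54 and 12.50 in SUM44 and 12.87, 13.01 and 13.31 in LCCTam. It was higher by 0.54 ± 0.13 (adjusted p = 0.0307), and its isoform COX4I2 was not analysed here. COX4I1 and COX7B were called without LCCTam replicate 1 (adjusted p = 0.00435 and 0.0422), COX4I1 also without LCCTam replicate 3 (0.0338), and neither in the remaining fits that left out 1 array, with adjusted p up to 0.118 and 0.171.

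The tissue isoforms COX6A1, COX6A2, COX7A1 and COX7A2 were not called, and 0 of the 4 had an unadjusted p under 0.05. COX6A1, the form of most tissues, had levels of 13.35, 13.52 and 13.49 in SUM44 and 13.27, 13.44 and 13.34 in LCCTam. COX6A2, its heart and muscle form, had 6.82, 6.91 and 6.98 in SUM44 and 6.79, 7.04 and 7.29 in LCCTam. COX7A1, the muscle form of subunit 7A, had 6.31, 6.47 and 6.59 beside 6.21, 6.53 and 6.87. Groups overlapped in all 3, and both muscle forms lay below the median of all gene means. COX7A2, the form of most tissues, had 12.39, 12.50 and 12.20 in SUM44 and 12.28, 12.33 and 12.29 in LCCTam, also overlapping. COX7A2L, which takes part in joining complex III to complex IV, had 11.03, 10.87 and 10.78 in SUM44 and 11.29, 11.20 and 11.89 in LCCTam. Its difference of 0.57, the highest of complex IV, had a 95% interval of 0.13 to 1.01 and an adjusted p of 0.0857. NDUFA4, which is now counted with complex IV, was not analysed here.

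Complex V, the ATP synthase, joins the catalytic F1 head, the membrane c ring and a peripheral stalk. Of 15 subunits measured, 2 were higher, 4 lower and 9 not called, with a median of 0.03. Calls over all genes made up 9.18% higher and 6.6% lower, and over genes above the median level 17.6% and 11.6%. Within the F1 head, 1 of 5 was higher and 2 lower. ATP5F1A, the alpha subunit, had levels of 12.61, 12.50 and 12.53 in SUM44 and 12.04, 12.05 and 11.80 in LCCTam, a difference of -0.58 ± 0.11 (adjusted p = 0.0132). ATP5F1C, the gamma subunit of the central shaft, had 13.10, 13.12 and 13.01 in SUM44 and 12.66, 12.62 and 12.39 in LCCTam, a difference of -0.52 ± 0.11 (adjusted p = 0.0206). ATP5F1D, the delta subunit at the foot of the shaft, moved the other way. It had levels of 8.11, 8.33 and 8.63 in SUM44 and 8.94, 9.50 and 9.73 in LCCTam, a difference of 1.03 ± 0.22 (2.04-fold, adjusted p = 0.0207), the highest of the 74 genes. A second ATP5F1D probe set, at 8.20 in SUM44 and 8.80 in LCCTam, differed by 0.60 (adjusted p = 0.106 among all probe sets). ATP5F1D lost its call without SUM44 replicate 1 (adjusted p = 0.091), SUM44 replicate 2 (0.0785) or LCCTam replicate 2 (0.0924). ATP5F1B, the catalytic beta subunit, differed by -0.10 with a 95% interval of -0.34 to 0.15.

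The peripheral stalk, which holds the head still, had 1 gene higher and 1 lower. ATP5PB, subunit b, had levels of 12.38, 12.29 and 12.45 in SUM44 and 11.83, 11.60 and 10.76 in LCCTam. LCCTam replicate 3 was well below the other two, and the difference of -0.98 ± 0.26 had an adjusted p of 0.0417. It was not called with a variance trend and robust fitting (adjusted p = 0.056) or after cyclic loess (0.0606), in a range of 0.00289 to 0.143. ATP5PD, subunit d, had 11.55, 11.69 and 11.45 in SUM44 and 12.17, 12.19 and 11.96 in LCCTam, a difference of 0.55 ± 0.12 (adjusted p = 0.0206). In the membrane part, ATP5ME, subunit e, had 10.98, 11.02 and 11.02 in SUM44 and 10.20, 10.34 and 10.30 in LCCTam. It was lower by 0.72 on the log2 scale (difference -0.72 ± 0.09, adjusted p = 0.00297) with little spread in either group. With SUM44 replicates 1 to 3 and then LCCTam replicates 1 to 3 left out in turn, complex V genes called lower numbered 1, 1, 1, 4, 2 and 5. Those called higher numbered 0, 1, 1, 2, 0 and 2. In the same order, 2.63%, 3.3%, 2.53%, 16.8%, 2.73% and 6.16% of all genes were called lower. The shares of all genes called higher were 4.1%, 3.92%, 3.74%, 18.7%, 3.59% and 8.63%.

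The 3 genes ATP5MC1, ATP5MC2 and ATP5MC3 encode the same mature protein of the c ring. None was called, and 1 of the 3 had an unadjusted p under 0.05. ATP5MC1 had levels of 9.71, 9.72 and 9.55 in SUM44 and 9.64, 9.92 and 9.99 in LCCTam. ATP5MC2 had 11.70, 11.63 and 11.67 beside 11.77, 11.83 and 12.31. ATP5MC3 had 12.53, 12.51 and 12.50 beside 11.98, 12.13 and 12.31, so that ATP5MC2 was above and ATP5MC3 below SUM44 on every LCCTam array. The ATP5MC3 difference of -0.38 ± 0.11 had an adjusted p of 0.0642, and its second probe set differed by -0.52 (adjusted p = 0.0119 among all probe sets). The second probe set of ATP5MJ also departed from the one used, at 0.55 (adjusted p = 0.018 among all probe sets) beside 0.03.

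ATP5IF1 binds complex V and blocks it from hydrolysing ATP when the proton gradient fails. It had levels of 8.56, 8.45 and 8.49 in SUM44 and 9.49, 9.28 and 9.42 in LCCTam. The replicates were tight in both groups, and the difference of 0.90 ± 0.10 (1.86-fold, adjusted p = 0.0018) was called in every fit that left out 1 array, with adjusted p between 0.000616 and 0.0164. Of the names that code for no protein, the antisense RNA NDUFB2-AS1 had 5.90, 5.70 and 5.66 in SUM44 and 6.43, 6.27 and 6.21 in LCCTam. It was higher by 0.55 ± 0.11 (adjusted p = 0.0185), in the same direction as NDUFB2, and was not called after cyclic loess (adjusted p = 0.0722, in a range of 0.013 to 0.0911). Its level lies in the lower part of the array's range. The pseudogene ATP5MC2P1 differed by 0.30 ± 0.16 and was not called.

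Where a gene had several probe sets, they mostly ran alike. The 21 genes with more than 1 had 33 other probe sets, of which 28 had the same sign as the one used. For the called genes, 10 of 11 did, and the exception was the dim SDHD probe set. Of the called genes, 4 (SDHA, ATP5F1C, ATP5ME and COX4I1) were measured by a probe set of the type marked x_at, whose probes can bind related sequences.

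Chromosome 19 held 7 of the 64 genes placed by the promoter table: NDUFA3, NDUFA7, NDUFA13, NDUFB7, NDUFS7, UQCR11 and COX6B1. This grouping was made after the values were seen. Of these, 6 were called higher and COX6B1 was not called, and all 7 were above 0, with a median of 0.63. The other 57 had 7 called higher and 15 lower, with a median of -0.09. Genes of the set without a promoter sequence, ATP5F1D and COX7A1 among them, were not placed, so more of them may lie on chromosome 19. The chromosome as a whole ran the same way: of 683 genes tested there, 24.7% were called higher and 0.878% lower, with a median of 0.25, beside 8.48%, 7.32% and 0.06 for genes elsewhere.

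The wider machinery of respiration was described with lists outside the naming rule. Of 46 listed assembly factors and regulators, 27 were measured: 2 were higher, 4 lower and 21 not called. Of all genes 9.18% were higher and 6.6% lower, and of genes above the median level 17.6% and 11.6%. DNAJC15, an inner membrane co-chaperone known as a restraint on complex I, had levels of 10.12, 10.63 and 10.04 in SUM44 and 4.76, 5.37 and 5.04 in LCCTam. The difference of -5.21 ± 0.21 (36.9-fold, adjusted p = 1.47e-05) ended below the lower quartile of all genes. HCCS, which attaches haem to the cytochromes c, differed by -0.56 ± 0.12 (adjusted p = 0.0183), and SDHAF1, an assembly factor of complex II, by 0.75 ± 0.17 (adjusted p = 0.0238). The list's median of -0.09 was near that of the subunits. Lower calls in it numbered 10 without LCCTam replicate 1 (16.8% of all genes). They numbered 1 with any single SUM44 array or LCCTam replicate 2 left out (2.53% to 3.3% of all genes). Those latter settings also ended the calls of HCCS and SDHAF1 (adjusted p up to 0.0777 and 0.105).

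Among 18 of 23 electron, phosphate and nucleotide carriers, 3 were higher and 3 lower, with a median of 0.04. The shares of all genes were 9.18% and 6.6%, and of genes above the median level 17.6% and 11.6%. ETFB, a subunit of the flavoprotein that collects electrons from fatty acid oxidation, had levels of 6.96, 7.20 and 7.22 in SUM44 and 9.26, 9.52 and 9.66 in LCCTam. It was higher by 2.35 ± 0.14 (5.10-fold, adjusted p = 9.84e-05). ETFDH, the next enzyme on that path to coenzyme Q, was lower, at 6.82, 6.42 and 6.67 in SUM44 and 5.91, 5.47 and 5.41 in LCCTam (difference -1.04 ± 0.17, adjusted p = 0.00721). PRODH, which feeds electrons from proline, was higher by 1.28 ± 0.19 (adjusted p = 0.00479). All 3 were called in every fit that left out 1 array. CYCS, cytochrome c itself, which the rule for named genes does not include, had 11.79, 11.56 and 11.84 in SUM44 and 11.48, 10.41 and 9.42 in LCCTam (adjusted p = 0.0954). Its 3 LCCTam arrays lay far apart, as those of NDUFA5 did. Lower calls in this list rose to 5 without LCCTam replicate 1, where 16.8% of all genes were called lower.

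Of 11 of 13 genes of coenzyme Q synthesis, 2 were higher and 1 lower, with a median of 0.08. These counts are near the shares of genes above the median level, 17.6% higher and 11.6% lower. Of all genes, 9.18% were called higher and 6.6% lower. COQ9, which binds lipid intermediates, was higher by 0.84 ± 0.14 (adjusted p = 0.00806) and COQ8A by 0.63 ± 0.17 (adjusted p = 0.0459), and COQ10B was lower, at -1.42 ± 0.27 (adjusted p = 0.0133). COQ8A and COQ10B lost their calls without SUM44 replicate 1, SUM44 replicate 3 or LCCTam replicate 2, COQ8A without SUM44 replicate 2 too, with adjusted p up to 0.169 and 0.0667. COQ8A was also not called after cyclic loess (adjusted p = 0.143), with median centring (0.0597) or with every probe set tested (0.0502). Higher calls numbered 4 without LCCTam replicate 1 (18.7% of all genes). They numbered 1 with LCCTam replicate 2 or any single SUM44 array left out (3.59% to 4.1% of all genes).

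The tricarboxylic acid cycle and pyruvate entry, which supply NADH and succinate, had more lower than higher calls. Of 26 of 29 genes, 7 were lower and 2 higher, where 6.6% and 9.18% of all genes were (11.6% and 17.6% above the median level), and the median was -0.31. IDH3B, a subunit of the NAD-dependent isocitrate dehydrogenase, had levels of 10.66, 10.51 and 10.51 in SUM44 and 9.27, 9.57 and 9.55 in LCCTam, a difference of -1.10 ± 0.12 (adjusted p = 0.00151). MPC1, a subunit of the mitochondrial pyruvate carrier, was lower by 0.60 on the log2 scale (difference -0.60 ± 0.11, adjusted p = 0.0123). PC, which makes oxaloacetate from pyruvate, was higher by 0.66 ± 0.12 (adjusted p = 0.012). Lower calls numbered 1, 2, 1, 12, 2 and 6 with the SUM44 and then the LCCTam arrays left out in turn. Of all genes, 2.63%, 3.3%, 2.53%, 16.8%, 2.73% and 6.16% were called lower in that order. MPC1 and PC lost their calls without SUM44 replicate 1 or SUM44 replicate 3, and PC also without LCCTam replicate 2, with adjusted p up to 0.0639 and 0.064.

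**Figure D4:**
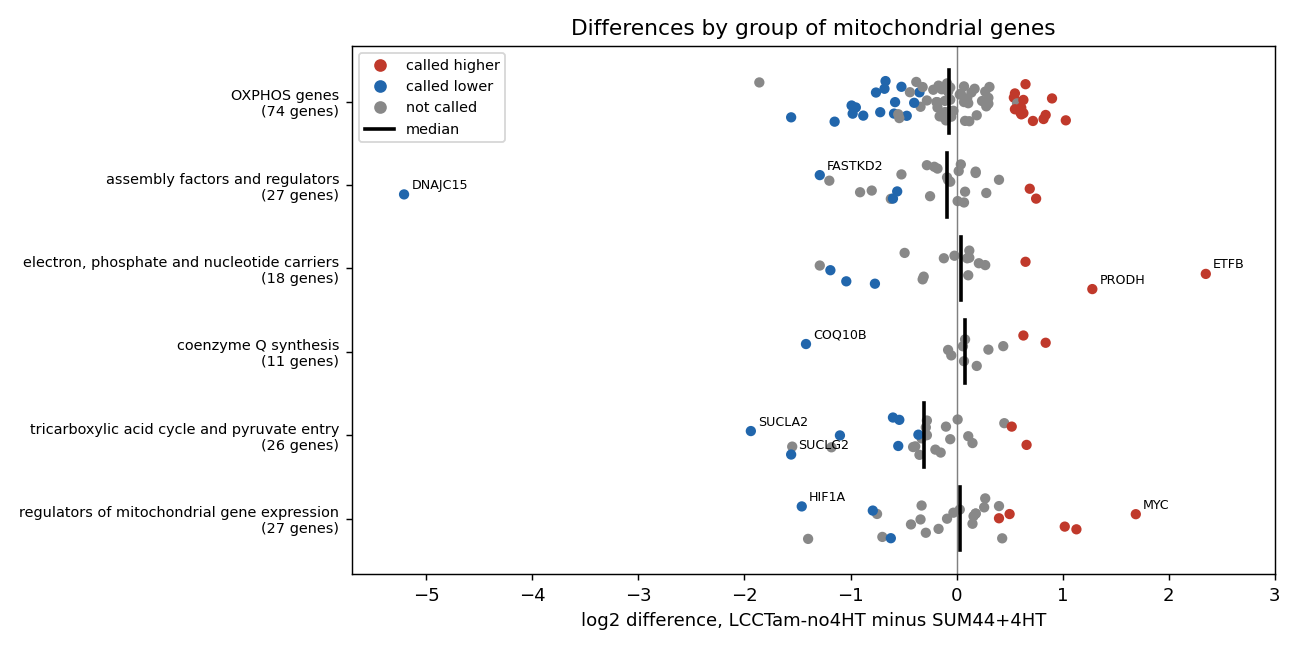
Log2 difference (LCCTam-no4HT minus SUM44+4HT, x axis) of every measured gene of the oxidative phosphorylation set and of 5 related lists (y axis, jittered); red points are called higher, blue called lower, grey not called, and black bars are list medians. DNAJC15 lies at -5.21 and ETFB at 2.35, beyond every oxidative phosphorylation gene, and the tricarboxylic acid cycle list has the lowest median.

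Regulators of mitochondrial gene expression were mixed: of 27 of 31 measured, 5 were higher and 3 lower, with a median of 0.03. Of genes above the median level, 17.6% were higher and 11.6% lower, and of all genes 9.18% and 6.6%. MYC, a transcription factor that acts on many mitochondrial genes, had levels of 7.22, 7.35 and 7.18 in SUM44 and 8.92, 8.96 and 8.92 in LCCTam (difference 1.69 ± 0.10, adjusted p = 9.34e-05). POLRMT, the mitochondrial RNA polymerase, was higher by 1.13 ± 0.20 (adjusted p = 0.0108), and PRKAA1, a catalytic subunit of AMP-activated kinase, was lower, at -0.62 ± 0.10 (adjusted p = 0.00795). PRKAA1 was dim, at 5.20 in SUM44 and 4.58 in LCCTam, below the lower quartile of all genes, 5.93. POLRMT lost its call without SUM44 replicate 1 (adjusted p = 0.0532) or SUM44 replicate 2 (0.0511), within 0.0011 to 0.0532. ESRRG, an oestrogen-related receptor, was higher by 1.02 ± 0.23 (adjusted p = 0.0233), and lost its call with any single SUM44 array or LCCTam replicate 2 left out, with adjusted p up to 0.0984, and after cyclic loess (0.0631). Its mean level was 5.26 in SUM44, also below that quartile, and 6.28 in LCCTam. Averaging the probe sets of PRKAA1 ended its call (adjusted p = 0.0614, in a range of 0.0022 to 0.0614). Without LCCTam replicate 1 the list had 7 higher and 8 lower (18.7% and 16.8% of all genes). With any single SUM44 array left out it had at most 2 higher and 1 lower. Of all genes, 3.74% to 4.1% were then called higher and 2.53% to 3.3% lower.

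Of the factors whose motifs were searched, NRF1 had levels of 6.80, 6.58 and 6.53 in SUM44 and 6.72, 6.94 and 7.03 in LCCTam (difference 0.26 ± 0.13, adjusted p = 0.221). GABPA differed by -0.29 ± 0.16 and YY1 by -0.34 ± 0.23, and neither was called. ESRRA, another oestrogen-related receptor, differed by 0.43 ± 0.18 (adjusted p = 0.154), and by 0.57 without LCCTam replicate 1 (adjusted p = 0.029, in a range of 0.029 to 0.394). The coactivator PPARGC1A was dim, at 4.99 in SUM44 and 4.66 in LCCTam, and was not called (adjusted p = 0.18). TFAM, which packages mitochondrial DNA and is needed for its transcription, had 7.84, 7.65 and 7.86 in SUM44 and 7.97, 7.07 and 6.20 in LCCTam. Its difference of -0.70 ± 0.39 had an adjusted p of 0.27, and without LCCTam replicate 1 the difference was -1.15 (adjusted p = 0.0044, in a range of 0.0044 to 0.596). PPARGC1B was not analysed here.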

How the data were processed

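Total RNA of 6 cultures was measured on single-colour Affymetrix arrays, 3 per group. The deposited values are log2 intensities; the authors made them from the scans with RMA (background correction, quantile normalization and summary per probe set), with no version given, per the submitters' processing notes and design text. Quantile normalization gives all arrays nearly the same distribution, so a shift shared by most genes would not be seen. No counts or detection calls come with them, and the number of arrays limits the precision.

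No test used the 68 control probe sets among the 22283. Of the others, 19065 name 1 gene in GEO's platform annotation, 1043 several and 2107 none; 19053 symbols were updated by gene ID. Where a gene had several probe sets, the one with the highest mean was used. The 11963 genes were fitted with limma 3.58.1 in R 4.3.3 (lmFit and eBayes, 4 residual degrees of freedom and 3.51 prior), with Benjamini-Hochberg adjustment over all genes. P-values measure the spread between cultures of 1 line per group. In 20 runs on simulated data with 11963 genes, 72.7% of 2-fold and 30.1% of 1.5-fold changes were recovered, with 4.8% false calls. Those runs gave both groups the same SD for a gene and changed few genes. In the data the SD of most genes was larger in LCCTam, so these rates may not hold here.

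The members and lists were chosen with earlier results of these data known. Array values are given for up to 24 called genes by adjusted p, the extremes of each complex and chosen isoforms; other lists name up to 3 called genes and chosen regulators. The alternatives are another choice of probe sets, a variance trend with robust fitting, cyclic loess, median centring, a filter on dim genes, a stricter threshold, a replicate block and leaving out each array.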

Additional observations from a re-analysis of the deposited data

How the results depend on the processing

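The median difference of the oxidative phosphorylation genes stayed between -0.09 and -0.03 over the alternatives tried, and no called gene named here changed direction. Counts of called genes depended on single arrays: leaving out 1 array in turn gave 3 to 19 higher and 6 to 20 lower. All genes moved likewise: 3.59% to 18.7% were called higher and 2.53% to 16.8% lower over the same fits. At an adjusted p under 0.01, 3 were higher and 6 lower (3.54% and 2.51% of all genes). The other choices of probe set, variance model, normalization and dim filter gave 13 to 14 higher and 16 to 18 lower. With replicate number as a block, 13 were higher and 16 lower, and 28 of the 30 genes remained called; NDUFS7 (adjusted p = 0.0586) and COX7B (0.0644) did not. The numbers were not taken to pair the arrays, since the labels do not say that a number marks a shared day or batch. Deviations from the group means correlated at 0.49, 0.349 and -0.054 for numbers 1, 2 and 3, and LCCTam replicate 3 correlated best with SUM44 replicate 2 (0.492). With 3 arrays per group these correlations depend on each other, so they cannot decide whether the arrays are paired. No detection calls exist, so dim genes have no floor. The median difference of the complex I assembly factors was -0.47 without dim genes and -0.19 with them.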
